A study of Mus musculus with 15 samples.

Results

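The Rag GTPases, the folliculin complex and the core of mTORC1 were followed by transcript level across 4 Klf genotypes, with Rragd set beside its paralogues and partners. The genes were Rraga, Rragb, Rragc, Rragd, Flcn, Fnip1, Fnip2, Mtor, Rptor and Tfeb, 10 of the 19938 genes with a transcript cluster of their own on the array. A transcript cluster is the array's unit for a gene, and each of the 10 genes had 1. Rragd was chosen by its measured signal, which was high in the Klf3-/- arrays, so its differences between arrays with and without the Klf3-/- genotype are given as a description and carry no test. The other 9 genes were listed for what their proteins do.

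Signal was measured in TER119+ cells of E13.5 fetal liver from FVB/NJ mice, on 15 Affymetrix arrays. TER119 is a surface antigen of maturing red cells, and the cells were taken with magnetic beads against it. By label, the 4 groups were DKO (Klf3-/- Klf8gt/gt, 4 arrays), Klf3KO (Klf3-/-, 3 arrays), Klf8gt (Klf8gt/gt, 4 arrays) and WT (wildtype at both genes, 4 arrays). Klf3-/- embryos lack the repressor KLF3 throughout, not in red cells alone, and gt marks a gene trap in Klf8, which encodes a related factor. All values are log2 signals, so a difference of 1 is a 2-fold difference, and levels are compared only within a gene.

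Rag GTPases work in pairs on the lysosome, RagA or RagB bound to RagC or RagD. When amino acids are plentiful, these pairs bring mTORC1 to the lysosomal surface, where the GTPase Rheb switches it on. Folliculin, with FNIP1 or FNIP2, makes RagC and RagD hydrolyse GTP, the form in which they present the transcription factors TFEB and TFE3 to mTORC1 for phosphorylation. In other cell types TFEB and its relatives bind E-boxes of the CLEAR type at genes of lysosomal function and are known to raise Rragd, and folliculin and FNIP1 are known to be needed in mouse blood cell formation. KLF3 binds CACCC-type motifs and represses through the corepressor CtBP.

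The promoter windows of the paralogues Rragd and Rragc are shown because the signal of Rragd differed with the Klf3 genotype while no difference of Rragc passed the test, and because they differ in both motifs. Each window is 300 bases of the RefSeq annotation of GRCm38.p6, from 250 bases before the annotated start to 50 after it, written 5′ to 3′ on the gene's strand. Capitals in Rragd mark CACCC, here read from the opposite strand as GGGTG, and capitals in Rragc mark the palindrome CACGTG, the core of the CLEAR-type E-box.
Rragd, chr4:32982748-32983047, plus strand: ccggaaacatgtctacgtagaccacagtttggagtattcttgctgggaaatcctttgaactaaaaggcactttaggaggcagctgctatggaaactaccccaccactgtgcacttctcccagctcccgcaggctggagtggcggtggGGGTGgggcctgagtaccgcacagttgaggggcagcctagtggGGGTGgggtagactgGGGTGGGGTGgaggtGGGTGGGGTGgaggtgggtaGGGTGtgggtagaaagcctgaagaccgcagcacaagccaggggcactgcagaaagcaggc
Rragc, chr4:123917183-123917482, plus strand: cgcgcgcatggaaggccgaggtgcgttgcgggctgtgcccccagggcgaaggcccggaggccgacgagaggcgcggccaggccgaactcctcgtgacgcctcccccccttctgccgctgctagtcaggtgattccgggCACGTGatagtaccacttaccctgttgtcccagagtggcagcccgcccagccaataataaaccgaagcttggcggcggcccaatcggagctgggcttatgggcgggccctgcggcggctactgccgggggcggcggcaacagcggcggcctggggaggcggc

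Searched on both strands, CACCC occurred 7 times in the Rragd window, always on the opposite strand. The matches began between 103 and 10 bases before the start, and none shared a base with the next. Of 32851 promoter windows of 27025 genes in the same table, 57.5% held CACCC at least once and 0.128% held it 7 times or more. Rragc had 0 matches of CACCC. Among the partners, Fnip1 had 4, a number reached by 3.1% of windows, Rraga had 2, Rragb, Flcn and Mtor had 1 each, and Fnip2 and Rptor had 0. Tfeb had 1 match at 1 of its 3 annotated starts and 0 at the other two. CACGTG was present in 7.15% of all windows, 1 time in Rragc, 1 time in Fnip1 and 3 times in Rragb, a number reached by 0.0883% of windows. It was not found in the window of Rragd. A longer motif for the same factors, CCNCNCCC, occurred 7 times in Rragd and 7 times in Fnip1, against at least 1 time in 49.5% of all windows and at least 7 times in 3.67%, and its matches in Rragd overlap those of CACCC. These are matches of letters in short windows, not sites bound in these cells.

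**Figure D1:**
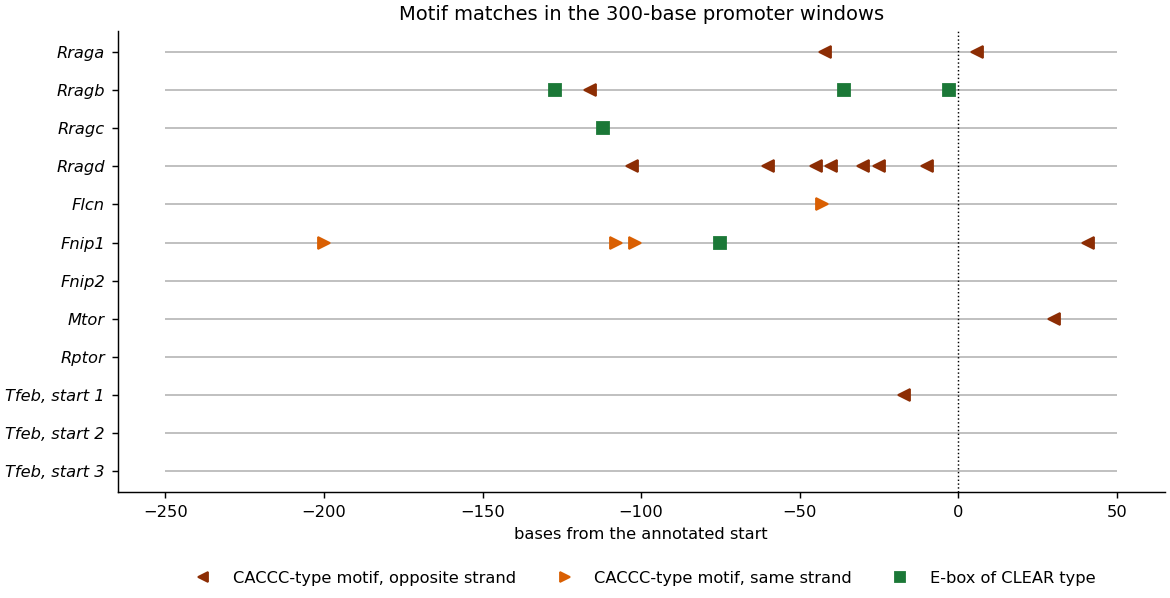
Positions of motif matches in the promoter windows of the 10 genes, in bases from the annotated start (dotted line), with triangles for CACCC on the opposite or same strand and squares for CACGTG. Rragd carries 7 CACCC matches between 103 and 10 bases before its start, and the squares lie in Rragb, Rragc and Fnip1.

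A few facts of the whole data set touch every result below. The Klf3 cluster read 11.37 ± 0.28 in DKO and 11.32 ± 0.14 in Klf3KO arrays, against 10.27 ± 0.04 in Klf8gt and 10.27 ± 0.17 in WT arrays (SD, n = 4, 3, 4 and 4). It was 1.04 higher in Klf3KO than in WT (adjusted p = 6.37e-04), so its level does not check the Klf3-/- label, and which exons it reads was not examined. The Klf8 cluster lay below the array median in all 8 Klf8gt and WT arrays, so between these groups it does not check the gene trap. In the Klf3-/- background it was above the medians, at 7.29 ± 0.55 in DKO and 8.71 ± 0.26 in Klf3KO arrays. There it was 1.42 lower with the trap (DKO minus Klf3KO -1.42, 2.69-fold lower, adjusted p = 0.0265), the direction of the label, and 19 of 27 alternatives kept this call. The call was lost with those groups alone (adjusted p = 0.473), with quantile normalization, over all clusters, and without DKO replicate 3 or any single Klf3KO array. It was also lost among males, where Klf3KO had only 1 array. Of 8 erythroid markers, 7 were measured and all 7 lay above the upper quartile of the arrays in WT, but so did 7 of 7 measured hepatocyte markers, so the sorted cells were not free of liver RNA. The mean over 15 macrophage markers ran from 7.24 to 8.90 in DKO, 8.43 to 8.91 in Klf3KO, 8.53 to 9.06 in Klf8gt and 9.005 to 9.30 in WT arrays, lowest in DKO replicate 1. The mean over 6 stromal markers ran from 8.86 to 9.34 in DKO, 8.58 to 8.83 in Klf3KO, 8.71 to 8.88 in Klf8gt and 8.65 to 8.81 in WT arrays. Of these, 2 were called higher in DKO against WT (1.52% of all clusters) and 2 in DKO against Klf8gt (1.48%). Of 7 erythroid markers 1 was called lower in DKO against WT (1.78% of clusters). The part of the stromal and erythroid values in the results below was not tested. In such bulk samples fewer cells of a type and less RNA per cell cannot be told apart. By Y-linked genes and Xist, all 4 WT arrays were male, DKO and Klf8gt had 2 males and 2 females each, and Klf3KO had 1 male and 2 females. Klf8 lies on the X chromosome, so males labelled Klf8gt/gt can carry only a single trapped copy. The DKO and Klf8gt groups therefore mix such males with females.

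RagD is the partner that binds RagA or RagB in place of RagC. Rragd signal was 11.45, 10.86, 11.13 and 10.40 in the DKO arrays and 10.45, 10.49 and 10.06 in the Klf3KO arrays. In the Klf8gt arrays it was 5.98, 7.28, 7.15 and 7.77, and in the WT arrays 5.71, 6.58, 6.37 and 7.20. Every array with the Klf3-/- genotype was therefore above every array without it, by more than 2 units at the nearest pair (10.06 against 7.77). Among all clusters, 8.79% were higher in every Klf3KO than in every WT array, 3.64% in every DKO than in every WT array and 3.21% in every DKO than in every Klf8gt array. In 1 Klf8gt and 1 WT array the signal was below the median of all clusters on that array, so the low side of the comparison lies near the floor of the array, where folds tend to be understated.

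The group means stood in the order DKO (10.96 ± 0.44), Klf3KO (10.34 ± 0.24), Klf8gt (7.04 ± 0.76) and WT (6.47 ± 0.61; SD, n = 4, 3, 4 and 4). Spread was larger in the groups where the gene was low. The mean was 3.87 ± 0.37 (SE) higher in Klf3KO than in WT, 14.6-fold, and 3.92 ± 0.35 higher in DKO than in Klf8gt, 15.1-fold, a pair of comparisons that share no array. It was 4.50 ± 0.35 higher in DKO than in WT, 22.6-fold. Over 27 alternatives of processing and of arrays left out, these differences ranged from 3.60 to 4.12, from 3.40 to 4.16 and from 4.10 to 4.74. With the macrophage marker mean as a covariate they were 3.74, 3.64 and 4.10, and with sex as a covariate 3.99, 3.92 and 4.58. Every Klf3KO and DKO array lay below every WT array in the macrophage mean. When these groups are compared with WT, that covariate cannot be separated from the genotype, for Rragd or any gene below. All WT arrays were male, so the sex term rests on the other groups.

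In that order the step from Klf3KO to Klf8gt follows the Klf3 genotype, by which Rragd was chosen, and its arrays did not overlap. The outer neighbours, DKO beside Klf3KO and Klf8gt beside WT, were not used in the choice, and they did not differ beyond their spread. The DKO mean was 0.62 ± 0.37 above the Klf3KO mean (95% interval -0.17 to 1.42, 1.54-fold, adjusted p = 0.513), with overlapping arrays. It was 0.37 above with the macrophage covariate, and the difference was not past the threshold in any of 27 alternatives. Among males alone it was 1.09 above, but there Klf3KO had only 1 array, replicate 3, its lowest for Rragd (10.06). The Klf8gt mean was 0.58 ± 0.35 above the WT mean (95% interval -0.16 to 1.31, 1.49-fold, adjusted p = 0.468), also with overlapping arrays. That difference was 0.33 without WT replicate 1, 0.34 without Klf8gt replicate 4 and 0.93 without Klf8gt replicate 1. It passed the threshold, an adjusted p of 0.05, in 2 of the 27 alternatives, at 0.84 with array weights (adjusted p = 0.0337) and at 0.93 without DKO replicate 1 and Klf8gt replicate 1 (adjusted p = 0.0403). Those arrays were left out because they stood apart in these data. Klf8gt replicate 1 was the lowest Klf8gt array for Rragd (5.98), so leaving it out raises this difference. The interaction, which asks whether the Klf3 difference depends on the Klf8 genotype, was 0.04 ± 0.51 (95% interval -1.04 to 1.13, adjusted p = 0.978). The interval is wide enough to hold a 2-fold difference in either direction.

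**Figure D2:**
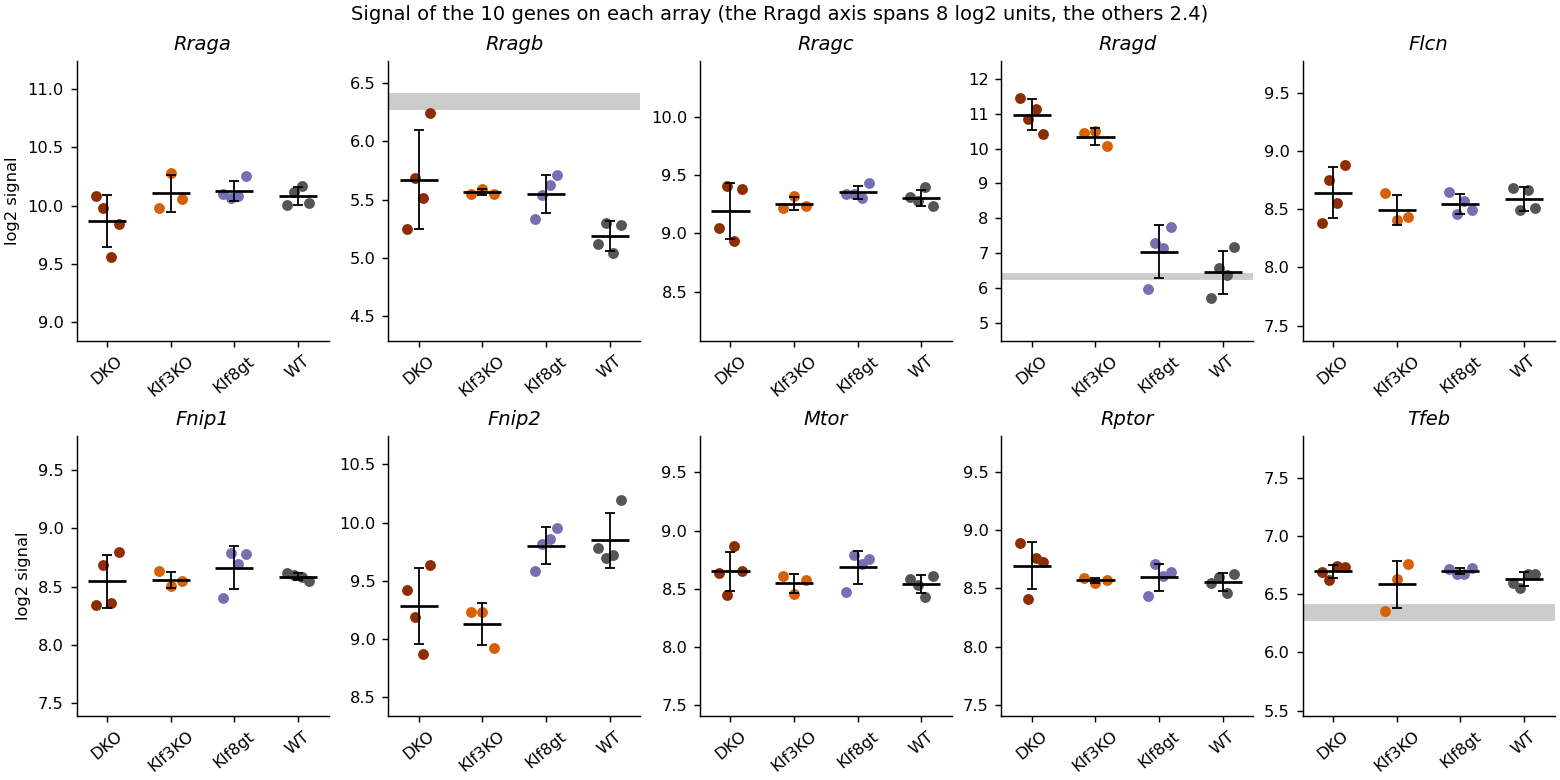
Log2 signal of the 10 genes in each array, with DKO, Klf3KO, Klf8gt and WT from left to right, bars at the mean ± SD and a grey band over the range of the array medians. The Rragd panel spans a wider range than the others: its DKO and Klf3KO arrays lie between 10.06 and 11.45 and its Klf8gt and WT arrays between 5.71 and 7.77, while in the other panels the groups lie close together.

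None of the other 9 genes passed an adjusted p of 0.05 in limma's test in any of the 6 comparisons. In Klf3KO against WT, 0 of 9 were called where 0.585% of all 23410 clusters were, and 2 of 9 had an unadjusted p under 0.05 where 7.83% of all clusters did. In DKO against WT 0 of 9 were called where 3.3% of clusters were, and in DKO against Klf8gt 0 of 9 where 3.35% were, with 2 of 9 at an unadjusted p under 0.05 in each (17.9% and 18.7% of all clusters). In Klf8gt against WT 0 of 9 genes and 0% of clusters were called, with 1 of 9 at an unadjusted p under 0.05 (13.4% of clusters). In DKO against Klf3KO 0 of 9 were called (0.047% of clusters), in the interaction 0 of 9 (0.00427%), and 0 of 9 had an unadjusted p under 0.05 in either (12.9% and 14.4% of clusters). A count of 0 in 9 is near the background in each comparison. The median difference of the 9 genes was -0.03 in Klf3KO against WT and 0.05 in DKO against WT, beside medians of -0.01 and -0.02 over all clusters.

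**Figure D3:**
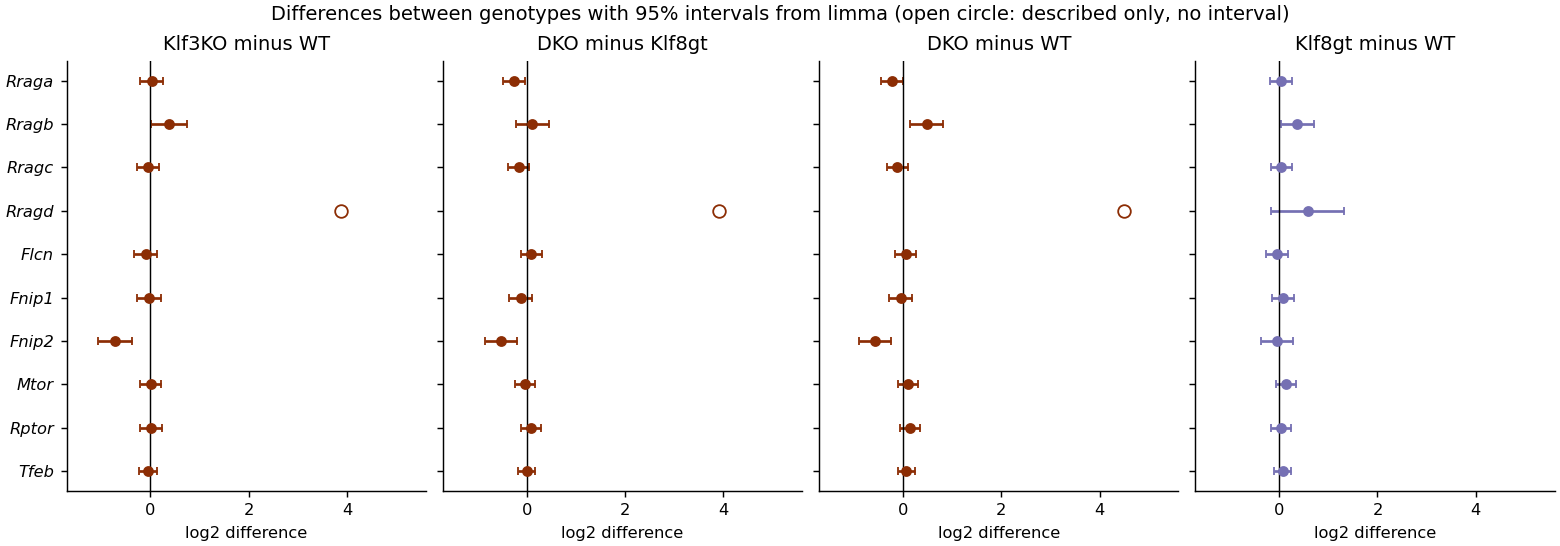
Log2 differences of the 10 genes in 4 comparisons, as points with 95% intervals from limma. Rragd is an open circle without interval at 3.87, 3.92 and 4.50 in the comparisons that chose it. All other points lie between -0.72 (Fnip2, Klf3KO minus WT) and 0.58 (Rragd, Klf8gt minus WT).

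Rragc encodes the other partner of RagA and RagB and is the closest paralogue of Rragd. Its signal was 9.04, 9.40, 8.93 and 9.38 in DKO, 9.21, 9.32 and 9.23 in Klf3KO, 9.34, 9.34, 9.30 and 9.43 in Klf8gt, and 9.31, 9.28, 9.40 and 9.24 in WT arrays. The groups overlapped throughout. The Klf3KO mean was -0.05 from the WT mean (95% interval -0.28 to 0.18, adjusted p = 0.930), and the DKO mean was -0.11 from it (95% interval -0.32 to 0.10, adjusted p = 0.607). Between DKO and Klf8gt the difference was -0.16 (95% interval -0.37 to 0.05, adjusted p = 0.401).

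Rraga, whose protein is the usual partner of RagC and RagD, was 10.08, 9.98, 9.56 and 9.85 in DKO, 9.98, 10.28 and 10.06 in Klf3KO, 10.10, 10.06, 10.08 and 10.26 in Klf8gt, and 10.01, 10.12, 10.17 and 10.02 in WT arrays. DKO replicate 3 was the lowest of all 15. The difference was 0.03 between Klf3KO and WT (95% interval -0.22 to 0.27, adjusted p = 0.969), -0.21 between DKO and WT (95% interval -0.44 to 0.01, adjusted p = 0.310) and -0.26 between DKO and Klf8gt (95% interval -0.48 to -0.03, adjusted p = 0.199).

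Rragb, the X-linked paralogue of Rraga, lay below the array median in all 15 arrays, so differences are given on the log2 scale with no fold. It was 5.25, 5.68, 5.51 and 6.25 in DKO, 5.55, 5.59 and 5.54 in Klf3KO, 5.33, 5.54, 5.63 and 5.71 in Klf8gt, and 5.12, 5.30, 5.04 and 5.28 in WT arrays. All 3 mutant groups averaged higher than WT: the Klf3KO and Klf8gt arrays did not overlap the WT arrays, and those of DKO did. Among all clusters, 2.47% were higher in every Klf8gt than in every WT array, beside the 8.79% for Klf3KO against WT. The difference from WT was 0.49 ± 0.16 in DKO (95% interval 0.15 to 0.82, adjusted p = 0.113), 0.38 ± 0.17 in Klf3KO (adjusted p = 0.623) and 0.37 ± 0.16 in Klf8gt (adjusted p = 0.339). All WT arrays were male, and with sex in the model the difference of DKO from WT was 0.42 (adjusted p = 0.264), and among males alone it was 0.28 (adjusted p = 0.373). With the macrophage mean as a covariate it was 0.996 (adjusted p = 0.0110), without DKO replicate 1 it was 0.63 (adjusted p = 0.0197), and without DKO replicate 4, the highest array, it was 0.29 (adjusted p = 0.164). It passed in 5 of 26 alternatives, also with array weights (0.48, adjusted p = 0.0472), with the replicate block (0.49, adjusted p = 0.0403) and without DKO replicate 1 and Klf8gt replicate 1 together (0.63, adjusted p = 0.0121).

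FNIP2 is the partner of folliculin that varied most here. Fnip2 signal was 9.42, 9.19, 8.87 and 9.64 in DKO and 9.23, 9.23 and 8.92 in Klf3KO arrays, against 9.58, 9.82, 9.86 and 9.95 in Klf8gt and 9.78, 9.70, 9.72 and 10.20 in WT arrays. Every DKO and Klf3KO array was below every WT array, and only DKO replicate 4 (9.64) was above any Klf8gt array, namely replicate 1 (9.58). Among all clusters, 4.75% were lower in every DKO than in every WT array and 5.7% lower in every Klf3KO than in every WT array.

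The Fnip2 mean was 0.72 lower in Klf3KO than in WT (difference -0.72 ± 0.17, 95% interval -1.07 to -0.37, 1.64-fold lower), which did not pass after adjustment over all clusters (adjusted p = 0.0830). It was 1.48-fold lower in DKO than in WT (difference -0.57 ± 0.15, 95% interval -0.89 to -0.24, adjusted p = 0.0567). In DKO against Klf8gt it was 1.44-fold lower (difference -0.52 ± 0.15, 95% interval -0.85 to -0.20, adjusted p = 0.0754), and that comparison passed with the replicate number as a block (adjusted p = 0.0250). Klf8gt and WT arrays overlapped (difference -0.05, adjusted p = 0.908), as did DKO and Klf3KO (0.15, adjusted p = 0.756). Over 27 alternatives the Fnip2 difference kept its sign in each comparison between arrays with and without the Klf3-/- genotype. It passed in 5, 7 and 5 of them for Klf3KO against WT (-0.92 to -0.60, adjusted p 0.00536 to 0.358), DKO against WT (-0.69 to -0.38, 0.0153 to 0.394) and DKO against Klf8gt (-0.64 to -0.39, 0.0192 to 0.477). Without DKO replicate 4 the adjusted p was 0.0365 in Klf3KO against WT, 0.0155 in DKO against WT and 0.0192 in DKO against Klf8gt. The first of these also passed without DKO replicate 3 (0.0297), and the next without DKO replicate 1 (0.0424) or Klf8gt replicate 1 (0.0474). In DKO against Klf8gt the Fnip2 difference passed without Klf8gt replicate 1 (0.0397). Leaving out an array of a group not compared changes only the shared spread and the adjustment. Without DKO replicate 3 or 4 the Klf3KO difference from WT thus stayed at -0.72. With the macrophage marker mean as a covariate, the Fnip2 difference was -0.65 in Klf3KO against WT (adjusted p = 0.109), -0.38 in DKO against WT (adjusted p = 0.394) and -0.39 in DKO against Klf8gt (adjusted p = 0.477).

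For Flcn and Fnip1, the rest of the folliculin complex, no difference passed the test. Flcn was 8.38, 8.75, 8.55 and 8.88 in DKO, 8.64, 8.41 and 8.43 in Klf3KO, 8.65, 8.46, 8.57 and 8.49 in Klf8gt, and 8.68, 8.49, 8.67 and 8.51 in WT arrays. Fnip1 was 8.34, 8.68, 8.36 and 8.79 in DKO, 8.64, 8.50 and 8.54 in Klf3KO, 8.40, 8.78, 8.69 and 8.78 in Klf8gt, and 8.62, 8.60, 8.58 and 8.54 in WT arrays. All groups overlapped, and both genes were most spread in DKO. The difference of Klf3KO from WT was -0.10 for Flcn (95% interval -0.33 to 0.14, adjusted p = 0.859) and -0.03 for Fnip1 (95% interval -0.28 to 0.22, adjusted p = 0.970). Whether Fnip2 differed from Fnip1 in its response was not tested.

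Mtor, the kinase, and Rptor, the subunit by which mTORC1 is recruited to the Rag GTPases, were close to level. Mtor was 8.64, 8.45, 8.86 and 8.65 in DKO, 8.61, 8.45 and 8.58 in Klf3KO, 8.47, 8.79, 8.72 and 8.76 in Klf8gt, and 8.59, 8.53, 8.43 and 8.61 in WT arrays. Rptor was 8.89, 8.41, 8.76 and 8.73 in DKO, 8.59, 8.54 and 8.57 in Klf3KO, 8.43, 8.71, 8.61 and 8.64 in Klf8gt, and 8.54, 8.60, 8.46 and 8.63 in WT arrays. Both genes had overlapping groups in every comparison. The difference of DKO from WT was 0.11 for Mtor (95% interval -0.09 to 0.31, adjusted p = 0.612) and 0.14 for Rptor (95% interval -0.06 to 0.34, adjusted p = 0.492), and in Klf3KO against WT both were 0.01.

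Tfeb, the transcription factor that folliculin and RagC or RagD hold under mTORC1 control, was just above the array medians. It was 6.69, 6.62, 6.75 and 6.73 in DKO, 6.36, 6.63 and 6.76 in Klf3KO, 6.72, 6.68, 6.68 and 6.72 in Klf8gt, and 6.60, 6.55, 6.68 and 6.68 in WT arrays. Klf3KO replicate 1 was the lowest. The difference from WT was 0.07 in DKO (95% interval -0.10 to 0.24, adjusted p = 0.724) and -0.04 in Klf3KO (95% interval -0.23 to 0.14, adjusted p = 0.927). For Rraga, Rragc, Flcn, Fnip1, Mtor, Rptor and Tfeb, the 95% intervals of Klf3KO against WT all lay between -0.33 and 0.27 and those of DKO against WT between -0.44 and 0.34. None of these 7 genes passed in any alternative of the 6 comparisons.

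The wider pathway was read from 10 lists with 76 genes, of which 72 had a cluster of their own. In Klf3KO against WT 0 of 72 were called (0.585% of all clusters) and 5 of 72 had an unadjusted p under 0.05 (6.94%, against 7.83% of all clusters). In DKO against WT 2 of 72 were called (3.3% of clusters), both lower (1.78% of clusters). In DKO against Klf8gt 3 of 72 were called (3.35%), 1 higher (1.48%) and 2 lower (1.87%). None of the 72 was called in Klf8gt against WT, in DKO against Klf3KO or in the interaction. An unadjusted p under 0.05 was found for 18 of 72 in DKO against WT (25%, against 17.9% of clusters), 16 in DKO against Klf8gt (22.2% against 18.7%) and 14 in DKO against Klf3KO (19.4% against 12.9%). It was found for 8 in Klf8gt against WT (11.1% against 13.4%) and 6 in the interaction (8.33% against 14.4%). The shares called after adjustment are near the background of each comparison, and the unadjusted shares lie on either side of it.

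Ragulator, the scaffold that holds the Rag GTPases on the lysosome, had 5 of 5 genes measured, and its median difference was 0.07 in Klf3KO against WT and -0.22 in DKO against WT. Lamtor2, a subunit of that scaffold, was 8.19, 8.35, 7.94 and 7.99 in DKO, against 8.53, 8.79, 8.61 and 8.70 in Klf8gt arrays, with no overlap. It fell in DKO against Klf8gt by 0.54 ± 0.09, 1.46-fold (adjusted p = 0.00365; 0.0736 when those groups alone were fitted), and among all clusters 4.12% were lower in every DKO than in every Klf8gt array. Against WT, where arrays read 8.34 to 8.50, the DKO difference was -0.31 (adjusted p = 0.0787). In Klf3KO arrays Lamtor2 read 8.41, 8.41 and 8.47, a difference of 0.002 from WT (adjusted p = 0.998). Every Klf8gt array was above every WT array, as for 2.47% of all clusters. The Klf8gt mean was 0.23 above the WT mean, which did not pass after adjustment.

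GATOR1, which switches RagA and RagB off, had a median of 0.00 in Klf3KO against WT over its 3 genes, GATOR2, which opposes it, 0.03 over 5, and KICSTOR, which anchors GATOR1, 0.05 over 3 of 4. Their medians in DKO against WT were 0.09, -0.04 and 0.06, and none of their genes was called. The 8 amino acid sensors had medians of 0.01 and 0.00 in these comparisons. Castor1, an arginine sensor that holds GATOR2 back, was 6.88, 6.95, 6.59 and 6.73 in DKO and 6.92, 7.03 and 6.86 in Klf3KO, against 6.51, 6.41, 6.18 and 6.21 in Klf8gt and 6.44, 6.51, 6.16 and 6.61 in WT arrays. It rose in DKO against Klf8gt by 0.46 ± 0.11 (adjusted p = 0.0340) and passed in 18 of 27 alternatives, with an adjusted p of up to 0.257, the highest with the macrophage covariate. Leaving out single arrays ended the call for DKO replicates 1 (0.0723) and 2 (0.0781) and Klf8gt replicates 2 (0.0676), 3 (0.106) and 4 (0.109). The Klf8gt mean lay below the mean array median of its group, so no fold is given. Its differences from WT were 0.51 in Klf3KO (adjusted p = 0.0929) and 0.36 in DKO (adjusted p = 0.0939).

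The 7 further genes of mTORC1 and its switch Rheb had medians of -0.02 in Klf3KO and -0.04 in DKO against WT, and 4 partners of mTORC2 had 0.03 and 0.05, with no gene called. The 7 amino acid transporters had -0.06 and -0.18, also with no gene called. Of the 3 relatives of Tfeb, Tfec, a member expressed mainly in macrophages, was 6.80, 7.13, 7.23 and 7.20 in DKO, against 7.77, 7.39, 7.88 and 7.87 in WT arrays, with no overlap. Among all clusters, 4.75% were lower in every DKO than in every WT array. Tfec fell in DKO against WT by 0.64 ± 0.13, 1.55-fold (adjusted p = 0.0138), and its adjusted p was 0.0594 without WT replicate 3 and 0.0641 when those groups alone were fitted. Adding the macrophage marker mean to the model left a difference of -0.31 (adjusted p = 0.354), and all 15 macrophage markers averaged lower in DKO than in WT, 6 of them called lower (1.78% of clusters). Every DKO array lay below every WT array in that mean, so the covariate cannot be separated from the genotype. The part of macrophage signal in the Tfec difference was not tested.

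Lysosomal genes with CLEAR elements, the targets of TFEB, were measured for 27 of 30. Their median was -0.02 in Klf3KO against WT, with 12 of 27 above 0 and 15 below, and -0.18 in DKO against WT, with 8 above and 19 below, beside -0.02 over all clusters. The called gene was Ctsf, which encodes the lysosomal protease cathepsin F, at 8.07, 7.50, 7.53 and 7.83 in DKO and 8.27, 8.14 and 7.95 in Klf3KO, against 8.67, 8.34, 8.40 and 8.58 in Klf8gt and 8.69, 8.80, 8.63 and 8.29 in WT arrays. Every DKO array was below every Klf8gt and WT array, and every Klf3KO array was below every WT array. Among all clusters, 4.75% were lower in every DKO than in every WT array. The share was 4.12% for DKO against Klf8gt and 5.7% for Klf3KO against WT. Ctsf fell in DKO against WT by 0.87 ± 0.14, 1.83-fold (adjusted p = 0.00191), and in DKO against Klf8gt by 0.76, 1.70-fold (adjusted p = 0.00598), where males alone gave an adjusted p of 0.115. In Klf3KO against WT its difference was -0.48 (adjusted p = 0.305). The fall in DKO against WT passed in all 27 alternatives, with the highest adjusted p under the macrophage covariate (-0.90, adjusted p = 0.0468). In DKO against Klf8gt that covariate gave -0.79 (adjusted p = 0.0498). Every DKO array lay below every WT array in the macrophage mean, so the covariate cannot separate it from the genotype. The part of the lower macrophage signal in Ctsf and in the other lysosomal values was not tested.

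**Figure D4:**
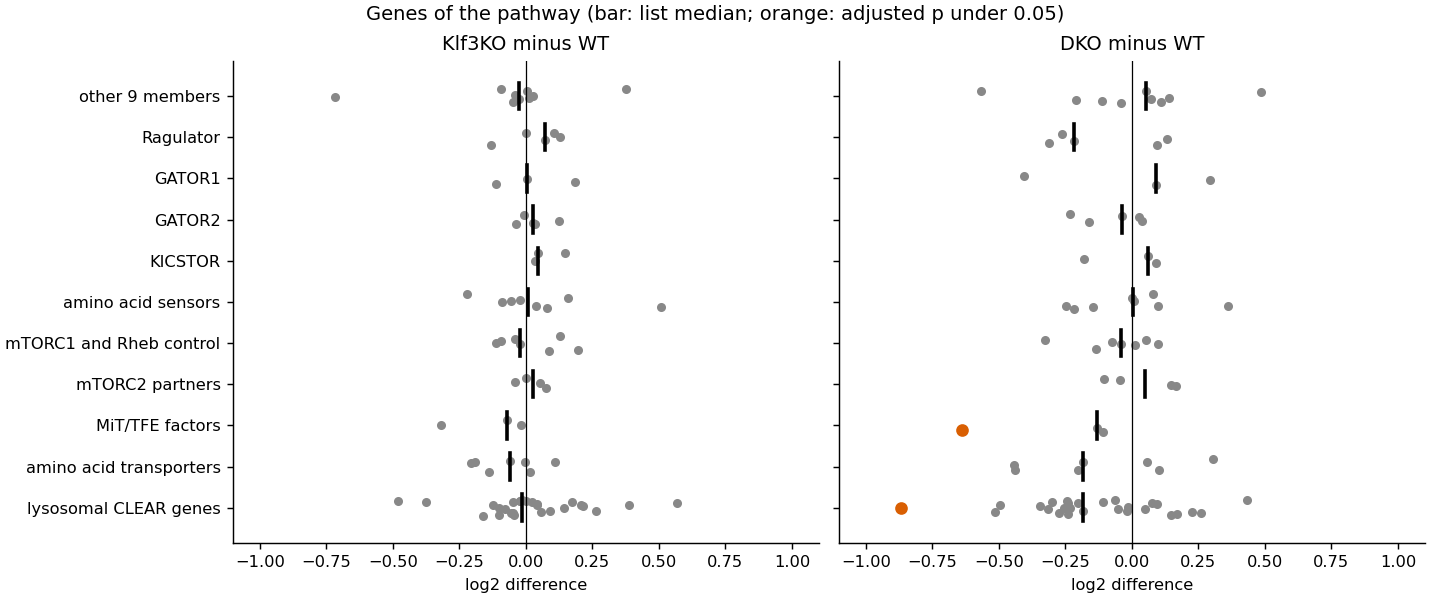
Log2 differences of the listed pathway genes in Klf3KO minus WT and DKO minus WT, 1 point a gene, with a black bar at each list's median and orange for an adjusted p under 0.05. Orange points are Tfec and Ctsf in DKO minus WT, and the lysosomal list has its median at -0.18 there against -0.02 in Klf3KO minus WT.

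Genes with profiles most like that of Rragd were ranked by the root mean square difference over the 15 arrays, each gene taken relative to its own WT mean and predicted genes and Riken clones left aside. The median of this distance over 21788 other clusters was 2.97. The nearest was Pqlc3, which encodes a PQ-loop membrane protein, at 0.741, followed by C1qtnf12, which encodes a secreted protein of the C1q/TNF family, at 0.887. Kdelr3, a receptor that returns proteins to the endoplasmic reticulum, stood at 0.929, Supt3, a subunit of the SAGA transcription complex, at 1.05, and S100a10, the partner of annexin A2, at 1.29.

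Relative to WT, Pqlc3 was 4.01 higher in DKO and 4.04 higher in Klf3KO, and C1qtnf12 was 3.30 and 3.29 higher, against 4.50 and 3.87 for Rragd. Kdelr3 was 3.46 and 2.53 higher, with WT and Klf8gt arrays below the array median, Supt3 was 3.18 and 2.55 higher, and S100a10 was 2.51 and 2.33 higher. In Klf8gt the 5 genes lay between -0.14 and 0.25 from WT, where Rragd lay at 0.58. In all 6 genes DKO replicate 4 was the lowest DKO array and Klf3KO replicate 3 the lowest Klf3KO array. The ranking compared genes array by array, so such agreement is partly built into the choice. This ranking searched the clusters with 1 gene symbol for the pattern by which Rragd was chosen, so it is a description, and none of the 5 belongs to the listed pathway genes. Of these 5, Pqlc3, Kdelr3 and Supt3 were in the promoter table, each with 2 matches of CACCC, a number reached by 25.7% of all windows.

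**Figure D5:**
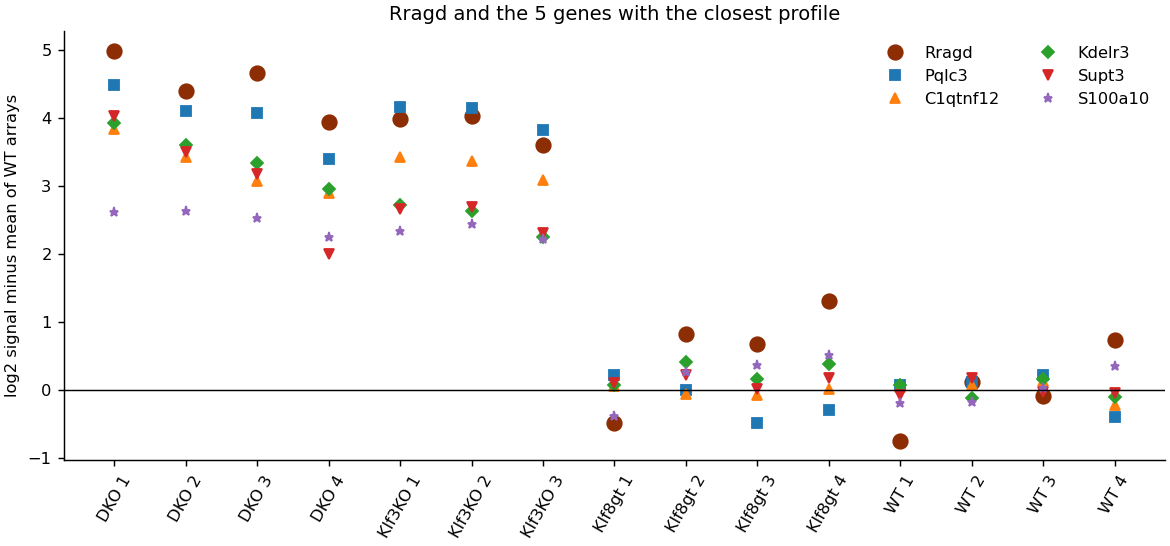
Log2 signal relative to each gene's WT mean in the 15 arrays for Rragd and the 5 genes with the most similar profiles. All 6 genes are high in the DKO and Klf3KO arrays and lie near 0 in the Klf8gt and WT arrays, with the widest spread near 0 in Rragd, from -0.75 to 1.30.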

How the data were processed

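Log2 signals per transcript cluster were used as deposited; per the submitters' processing notes the authors used RMA and Partek, with no version given. Per the labels' protocols, TER119+ cells were taken with MicroBeads on MS columns, and RNA was labelled with biotin by an Affymetrix IVT Express kit. RMA compresses low signals. No detection calls came with the deposited log2 values, so folds are left out where a group mean lay below the array medians (6.28 to 6.41). Cluster coordinates were not used here.

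Of 35556 clusters, 23410 had at least 1 gene symbol and were tested. Genotype means were estimated from all 15 arrays in a linear model (limma 3.58.1, R 4.3.3, eBayes with 4.27 prior degrees of freedom). P-values were two-sided, with Benjamini-Hochberg adjustment over all tested clusters of a comparison, with a threshold of 0.05, and intervals are 95% intervals. The number of arrays limits the precision: the median standard error was 0.11 for 4 against 4 arrays and 0.12 for 3 against 4. The fit was tested on simulated data.

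Genes were named as follows: the 10 genes, Klf3 and Klf8 always, pathway genes past the threshold, and the 5 clusters closest in profile to Rragd. The genes, lists and tests were chosen with earlier results of these data known. Alternatives were an intensity trend, all clusters, a filter on low means, quantile normalization, median centring, array weights and a replicate block. Others were sex or the macrophage mean as a covariate, males alone, the compared groups alone, and arrays left out. DKO replicate 1 and Klf8gt replicate 1 were also left out together, as arrays that stood apart in these data. Samples were litter-matched where possible, but the labels do not say which share a litter or that each is a separate embryo, so the spread behind the p-values may be technical. Deviations from the group means correlated at 0.114 to 0.534 between DKO and Klf8gt arrays of the same replicate number, highest for replicate 1. They correlated at 0.071 to 0.158 between DKO and Klf3KO arrays of the same number. Arrays of unlike number were not compared, so whether the numbers pair arrays was not tested. No 2 arrays held identical values. Genes were matched to RefSeq promoter windows by symbol, 10 of 10, and no protein sequences were used here.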

Additional observations from a re-analysis of the deposited data

Results flagged for a closer look

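Fnip2 in WT replicate 4, at 10.20, stood apart from the other 3 WT arrays, which read 9.70 to 9.78. Its gap to the nearest array took up 0.841 of the range of the group, past the 95% critical value of Dixon's test for 4 samples. In all, 30 groups of 4 arrays were examined over the 10 genes, and chance alone marks about 1 in 20 such groups. Without this array the Fnip2 difference was -0.60 in Klf3KO against WT (adjusted p = 0.201) and -0.45 in DKO against WT (adjusted p = 0.116). It was the highest WT array, so leaving it out cannot change whether the DKO and Klf3KO arrays lie below the WT arrays.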

How the results depend on the processing

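Rragd kept the sign and approximate size of its differences between arrays with and without the Klf3-/- genotype under all 27 alternatives. Leaving out single arrays, they ran from 3.62 to 4.12 (Klf3KO against WT), 4.24 to 4.74 (DKO against WT) and 3.56 to 4.16 (DKO against Klf8gt), and the others from 0.33 to 0.93 (Klf8gt against WT), 0.46 to 0.81 (DKO against Klf3KO) and -0.31 to 0.30 (interaction). Klf8gt against WT passed at 0.84 with array weights and at 0.93 without DKO replicate 1 and Klf8gt replicate 1. The interaction, not past the threshold, turned sign in 10 of 26 alternatives: -0.26 with array weights, -0.055 with the replicate block, -0.070 with sex, -0.093 with the macrophage mean, -0.47 without both those arrays, -0.12 and -0.01 without DKO replicates 1 and 3, -0.09 without Klf3KO replicate 3, -0.31 without Klf8gt replicate 1 and -0.20 without WT replicate 4. The causes were not tested.

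Of the other 9 genes, Fnip2 was called in Klf3KO against WT (count 1) with array weights, with the compared groups alone and without both arrays. In DKO against WT the count was 1 with the filter on low means (Fnip2), 1 with the macrophage mean (Rragb), and 2 with array weights, with the replicate block and without both arrays (Rragb and Fnip2). It was 1 (Rragb) in Klf8gt against WT with array weights and with the macrophage mean, and 1 (Fnip2) in DKO against Klf8gt with array weights, with the block and without both arrays. With single arrays left out it ran from 0 to 1, 0 to 2 and 0 to 1 in Klf3KO against WT, DKO against WT and DKO against Klf8gt, and stayed at 0 in the other comparisons.

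The count of called pathway genes ran, with single arrays left out, from 1 to 12 in DKO against WT, 0 to 3 in Klf8gt against WT, 0 to 1 in DKO against Klf3KO, 2 to 13 in DKO against Klf8gt and 0 to 1 in the interaction. In Klf3KO against WT (0) it was 2 with array weights, 1 with the block, 2 with the compared groups alone and 1 without both arrays. In DKO against WT (2) it was 6 with array weights, 1 with the compared groups, 4 among males and 9 without both arrays. In Klf8gt against WT (0) it was 14 with array weights, 2 with the macrophage mean and 7 without both arrays. In DKO against Klf8gt (3) it was 1 with the compared groups and 5 among males, and in the interaction (0) it was 1 with array weights and 1 without both arrays.

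The background moved too. Among males Klf3KO had only 1 array, so no count among males is given for comparisons that use Klf3KO. Called clusters in Klf3KO against WT (137) were 597 with array weights, 481 with the compared groups, 40 among males and 296 without both arrays. In DKO against WT (772) they were 295 with the compared groups, 409 with the macrophage mean and 2260 without both arrays. In Klf8gt against WT (0, with 3135 at an unadjusted p under 0.05) they were 4081 with array weights, 318 among males, 281 with the macrophage mean and 2917 without both arrays. In DKO against Klf3KO (11) they were 6 over all clusters, 55 with array weights, 0 with the compared groups, 3 with the macrophage mean and 162 without both arrays. In DKO against Klf8gt (785) they were 1280 with array weights, 188 with the compared groups, 1610 among males, 275 with the macrophage mean and 1245 without both arrays. In the interaction (1) they were 0 over all clusters, 1183 with array weights, 13 with the block, 0 with sex, 411 among males, 0 with the macrophage mean and 746 without both arrays. With single arrays left out they ran from 61 to 180, 382 to 1389, 0 to 1683, 1 to 484, 393 to 1777 and 0 to 718 in the same order of comparisons. Between WT arrays and same-numbered arrays of the other groups, deviations correlated at -0.276 to 0.128, and whether the numbers pair arrays was not tested.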

Other observations

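Within groups, Rragd had the same order of replicate numbers in Klf8gt and in WT: replicate 1 was lowest (5.98 and 5.71), then 3 (7.15 and 6.37), 2 (7.28 and 6.58) and 4 (7.77 and 7.20). In DKO the order ran the other way, with replicate 1 highest (11.45) and replicate 4 lowest (10.40). This was seen in the values after the fact, the labels give the numbers no meaning, and it was not tested.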
